A study of Mus musculus with 33 samples.

Results

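The Dlx1/Dlx2 locus of the mouse was followed through RNA, DLX binding and histone marks in embryonic ganglionic eminences. Its members were chosen by name and by position: the genes Dlx1, Dlx2 and Dlx1as, which are 3 of the 14664 symbols of the RNA table, and every DLX peak and histone peak that touches the 150 kb window chr2:71300000-71450000 (mm9). The study compared CD1 wild-type embryos (WT) with CD1 Dlx1/2-/- embryos (KO), for which the labels name no conditional driver. RNA was sequenced at e13.5 from 4 wild-type and 4 knockout samples, stated to come from 4 embryos of each genotype, with both sexes in each. ChIP-seq located DLX1, DLX2 and DLX5 in wild-type eminences of 3 ages (e11.5, then e13.5, then e16.5), and H3K27ac, H3K4me1, H3K4me3 and H3K27me3 at e13.5 in wild-type and KO tissue, with 1 library for each condition. The sources used here do not say which bases the knockout allele lacks.

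Dlx1 and Dlx2 encode homeodomain transcription factors that bind AT-rich DNA and act in the progenitors and young neurons of the ventral forebrain, where GABAergic interneurons and striatal projection neurons are born. The genes are neighbours transcribed toward each other, an arrangement shared by the related pair Dlx5 and Dlx6, and DLX proteins are known to bind enhancers of both pairs. Dlx1as is a long noncoding RNA transcribed from the strand opposite to Dlx1. H3K27ac and H3K4me1 are known from active enhancers, H3K4me3 from promoters, and H3K27me3 from genes held silent by Polycomb complexes. In RefSeq the genes lie in the order Slc25a12, Hat1, Metap1d, Dlx1, Dlx1as, Dlx2, then noncoding gene models, then Itga6 and Pdk1.

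The start regions of the 2 coding genes are shown because both genes changed in the knockout and because DLX factors bind DNA around them. RefSeq (GRCm38.p6) gave an entry for 2 of the 3 members, Dlx1 and Dlx2. The 250 bases before each start are printed 5′ to 3′ on the strand of the gene, at chr2:71529195-71529444 on the plus strand for Dlx1 and at chr2:71546755-71547004 on the minus strand for Dlx2. Capitals mark matches to CACGTG, an E-box, and to CCAAT in either orientation. These positions belong to another build than the peaks and are not set against them.
Dlx1 upstream: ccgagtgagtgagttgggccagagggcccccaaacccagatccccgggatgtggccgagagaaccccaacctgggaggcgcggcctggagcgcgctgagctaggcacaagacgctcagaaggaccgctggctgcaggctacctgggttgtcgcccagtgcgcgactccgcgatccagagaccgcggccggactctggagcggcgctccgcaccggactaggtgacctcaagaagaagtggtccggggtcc
Dlx2 upstream: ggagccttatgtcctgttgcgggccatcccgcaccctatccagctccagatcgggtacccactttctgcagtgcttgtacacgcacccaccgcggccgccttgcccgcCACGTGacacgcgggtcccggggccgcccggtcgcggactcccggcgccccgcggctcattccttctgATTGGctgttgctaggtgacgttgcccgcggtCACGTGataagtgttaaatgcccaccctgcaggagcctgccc
The Dlx2 sequence holds CACGTG at 142 and at 42 bases before the start, counted to the first base of the match, and CCAAT on the opposite strand at 74 bases before it. The Dlx1 sequence holds neither. On both strands of the 32851 upstream sequences of the same length in the table, CACGTG occurs in 6.02% and CCAAT in 33.9%. The homeodomain core ATTA, which is also the end of the longer core TAATTA, occurs in neither gene's 250 bases, nor do TAATTA and TATAAA. Over all upstream sequences ATTA occurs in 54.9%, TAATTA in 4.84% and TATAAA in 12.4%. GC content was 68% for Dlx1 and 66.4% for Dlx2 against a median of 52.4%, and CG dinucleotides numbered 22 and 24 against a median of 6.

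All 3 transcripts of the locus fell in the knockout, to very different extents. Dlx1as kept 0.242% of its wild-type level, Dlx2 kept 5.79% and Dlx1 kept 18.9%. Levels are CPM, the reads of a gene per M reads of its library, from the deposited counts with TMM scaling. They are not corrected for gene length, so they compare a gene between libraries and not one gene with another.

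Dlx1 stood at 119, 121, 129 and 127 CPM in wild-type replicates 1 to 4 and at 21.5, 22.8, 23.4 and 26.1 CPM in the knockout replicates. The wild-type values lay close together and the lowest of them was 4.57 times the highest knockout value. On the log2 scale the change was −2.40 (SE 0.09, edgeR adjusted p = 1.2e-06), and no other of the 14510 genes tested had a smaller p. The knockout values rested on 350 to 1090 reads per library. The table counts reads per gene and does not show which exons they came from.

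Dlx2 stood at 18.7, 15.3, 21.8 and 29.0 CPM in wild type and at 1.07, 1.02, 1.47 and 1.501 CPM in knockout. It was the most variable of the 3 in wild type, with a coefficient of variation of 27.6% against 3.66% for Dlx1 and 9.55% for Dlx1as, and its groups were still 10.2-fold apart at their nearest values. The log2 change was −4.11 (SE 0.24, edgeR adjusted p = 9.9e-06). In the knockout libraries 22 to 49 reads were assigned to it.

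Dlx1as stood at 248, 248, 272 and 215 CPM in wild type and at 0.854, 0.836, 0.201 and 0.115 CPM in knockout. The knockout values rest on 36, 40, 3 and 3 reads, and the exact 95% Poisson intervals for counting error run from 0.598 to 1.18 CPM in replicate 1 and from 0.0238 to 0.337 CPM in replicate 4. The log2 change was −8.69 (SE 0.38, edgeR adjusted p = 2.0e-06), and it was the largest fall of all genes tested. Its size depends on the libraries: replicates 1 and 2 alone gave −8.20 and replicates 3 and 4 alone −10.64. Those same sets of libraries separate on the first principal component of all genes, which carries 33.6% of the variance, and the labels do not say how they differ.

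The groups did not overlap for any of the 3 genes, as was so for 5.98% of all genes tested, and 3.09% with the knockout lower. All 3 passed the test as lower, against 0.896% of all genes lower and 1.48% changed either way. Dlx1 and Dlx2 are the genes named in the knockout, so their falls are a check of the labels and no independent result. What the knockout allele can still transcribe was not tested. In bulk tissue fewer cells that express a gene and less RNA per cell cannot be told apart. The library kit keeps strand, but the sources do not say whether the counting used it, so reads from a part shared by Dlx1 and Dlx1as may have been counted for either.

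**Figure D1:**
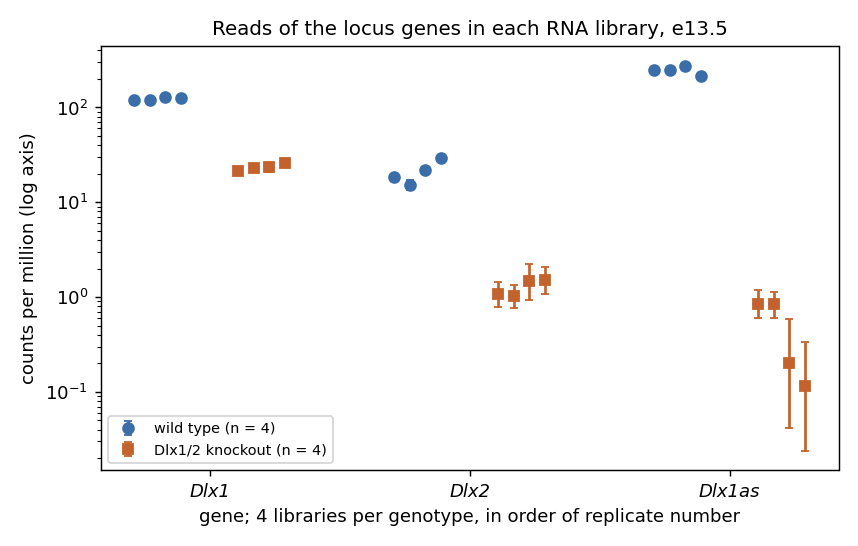
Reads of Dlx1, Dlx2 and Dlx1as in CPM (log axis) in each of the 4 wild-type libraries (circles) and 4 knockout libraries (squares) at e13.5, with bars for the exact 95% Poisson interval of the count. Within each gene all wild-type libraries lie above all knockout libraries, and the knockout values of Dlx1as split into replicates 1 and 2 near 0.8 and replicates 3 and 4 near 0.1 to 0.2.

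The proportions among the 3 transcripts shifted with genotype in each comparison made within a library. For 1 read of Dlx2 there were 4.37 to 7.90 reads of Dlx1 in wild type and 15.6 to 22.0 in knockout. For 1 read of Dlx1 there were 1.70 to 2.11 reads of Dlx1as in wild type and 0.00515 to 0.0403 in knockout. The log2 differences in these ratios were 1.62 and −6.89, and that of Dlx1as to Dlx2 was −5.27. Each had an exact two-sided permutation p of 0.0286, the smallest that 4 against 4 samples can give (also 0.0286 adjusted over the 3 ratios). With the replicate numbers taken as pairs, the exact sign-flip p for each was again the smallest possible, at 0.125. A ratio within a library does not depend on its depth, so the falls of the 3 genes were unequal in these libraries.

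The transcripts that followed each gene most closely over the 8 libraries were found by the root mean square difference in log2 CPM, each gene centred on its wild-type mean, among 13367 genes with a mean of at least 1 CPM. Nearest to Dlx1 were Dgkg, a diacylglycerol kinase (0.164), Sp8, a zinc finger transcription factor of the lateral and caudal eminences (0.165), and Rxrg, a retinoid X receptor (0.192). Sp8 averaged 38.6 ± 3.57 CPM in wild type and 7.28 ± 0.861 in knockout (SD, n = 4), or 19.0% of wild type, next to the 18.9% of Dlx1. Nearest to Dlx2 were Aldh1a3, an enzyme of retinoic acid synthesis (0.434), Dlx6as2 (0.512) and Gm14204 (0.564). No gene came near Dlx1as: its closest was Dlx6os1 at 2.91, ahead of Nxph2 at 3.45 and Dlx6as2 at 3.55. The measure is a description, and it says nothing of shared control.

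The rest of the Dlx family in the table fell as well, 4 of 4, against 0.896% called lower over all genes tested. Dlx3, Dlx4 and Dlx6os2 were not among the symbols of the table. Dlx6os1, the long noncoding RNA of the Dlx5/Dlx6 pair, kept 2.83% of its wild-type CPM, Dlx6as2 4.46%, Dlx5 9.84% and Dlx6 15.7%. In this pair the noncoding transcripts thus kept a smaller share than the coding genes, and Dlx1as kept a smaller share than Dlx1 and Dlx2. Dlx1as lies at the targeted locus and the bases that the knockout allele lacks are not stated. The pairs therefore cannot be read as 1 pattern. The difference between noncoding and coding genes of the Dlx5/Dlx6 pair was not tested.

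Genes known to act upstream of, beside or in concert with Dlx1 and Dlx2 mostly did not pass the test. Of 16 tested, 1 fell and 2 rose, against 0.896% lower and 0.586% higher over all genes, and the median log2 change was 0.06 against −0.003. Sp8 fell (log2 −2.40, SE 0.12, edgeR adjusted p = 4.0e-06). Gsx1, a homeobox gene of ventral progenitors, rose from 0.249 ± 0.0948 to 2.96 ± 0.644 CPM, a low level, and Otx2 from 10.1 ± 0.707 to 23.2 ± 3.77 CPM (SD, n = 4). With the replicate number as a block 3 fell and 6 rose.

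Of 25 tested genes described as downstream of Dlx1 and Dlx2, 14 fell and 2 rose, against 0.896% lower and 0.586% higher over all genes tested. The median log2 change was −0.92 against −0.003. The list was assembled with earlier results of these data known and is no independent evidence of direction. The falls ranged from Robo2, an axon guidance receptor, at 70.5% of wild type to Slc32a1, the vesicular GABA transporter, at 10.6%. Gad1 and Gad2, which make GABA, kept 39.3% and 35.6%. Pak3, a kinase of the neurite cytoskeleton, rose from 532.4 ± 46.1 to 1091.9 ± 157.9 CPM and Sall3, a zinc finger factor, from 18.6 ± 1.86 to 32.7 ± 4.02 CPM (SD, n = 4).

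Of 15 tested neighbours on chromosome 2, 2 fell, the more distant Gad1 and Cdca7 (to 69.3% of wild type), and 1 rose, Metap1d, against 0.896% lower and 0.586% higher over all genes tested. Only 1 was called lower when wild-type replicate 1, 2 or 3 or knockout replicate 1 or 2 was left out. None of the 5 closest fell. Metap1d, a mitochondrial methionine aminopeptidase and in RefSeq the next coding gene on the side of Dlx1, rose from 14.4, 16.3, 12.3 and 12.7 CPM in wild type to 29.5, 35.6, 32.7 and 26.3 CPM in knockout (log2 1.16, SE 0.13, edgeR adjusted p = 1.0e-03). Slc25a12, Hat1, Itga6 and Pdk1 had log2 changes between −0.16 and 0.08, and none passed the test.

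**Figure D2:**
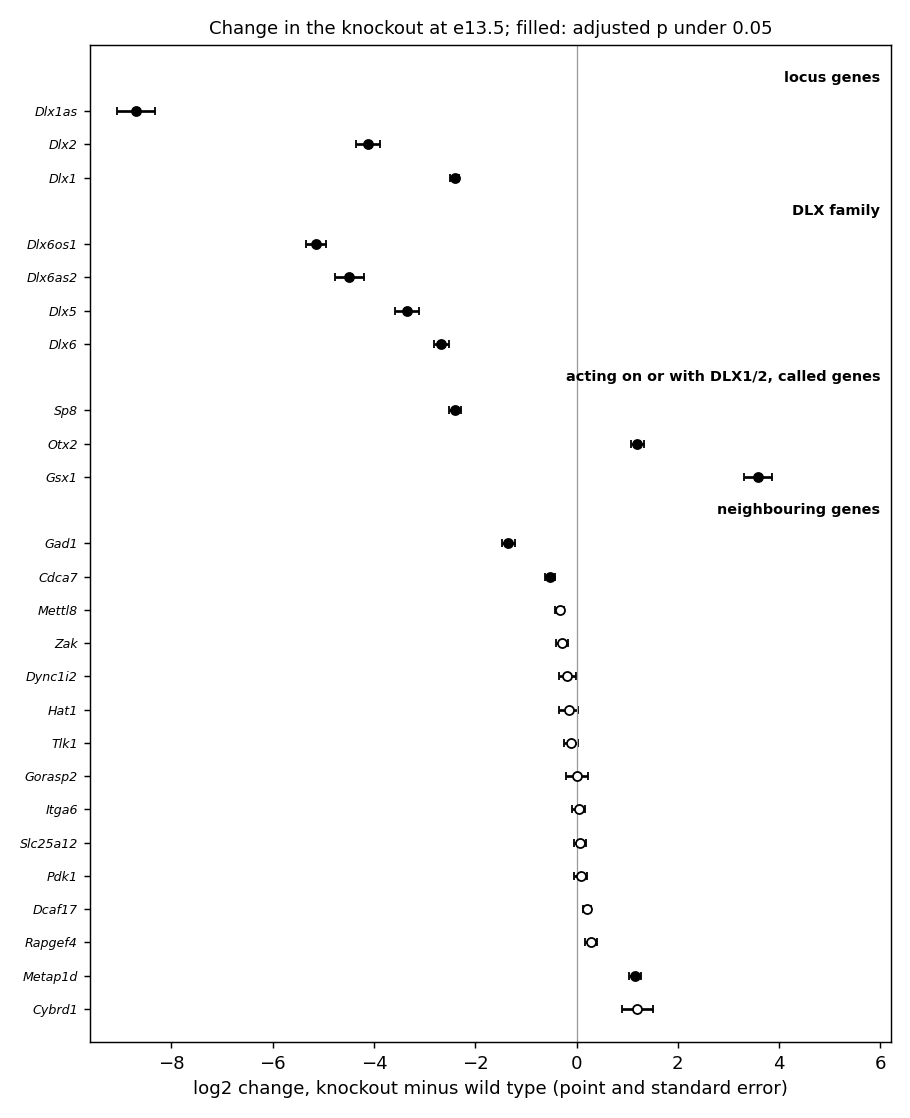
Log2 change from wild type to knockout with its standard error for the 3 locus genes, the 4 other Dlx family genes in the table, the 3 called genes of the 16 known to act on or with DLX1 and DLX2, and 15 genes around the locus on chromosome 2; filled points passed the edgeR test at an adjusted p of 0.05. Dlx1as lies farthest to the left at −8.69, and most of the neighbouring genes lie around 0.

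The tissue carried its own markers: all 10 eminence markers were present, with a summed level of 1042 to 1111 CPM in wild type and 699.8 to 774.0 in knockout, and 5 of the 10 were called lower. Summed markers of cortical glutamatergic neurons (8 of 8 present) ran from 399.8 to 493.4 CPM in wild type and from 429.9 to 578.5 in knockout, with none called. Blood markers (5 of 6 present, 1690 to 1920 against 1434 to 2058 CPM), vessel, microglia and mesenchyme markers overlapped between genotypes, and none was called. Of 3 choroid plexus markers only Ttr was in the table, summing to at most 0.708 CPM in wild type and 1.94 in knockout. The part of these cells in the results was not tested. Library totals ranged from 14.4 to 117 M reads.

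DLX proteins bound the Dlx1/Dlx2 locus densely. In mm9 coordinates the 9 lists of DLX peaks placed 10, 10 and 17 DLX1 peaks, 17, 21 and 24 DLX2 peaks and 11, 7 and 16 DLX5 peaks in the window, in order of age. The mean over 17555 windows of the same length was 0.166 to 1.85 peaks, depending on the list, and only 5 to 17 windows held as many. Counts of peaks grow with sequencing depth, which these files do not give, so the lists are not compared with one another for strength of binding. The lists of 1 age share an input at e11.5 and at e16.5, per the labels, where each condition has 1 library. Whether sequencing runs were merged before peaks were called is not stated.

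Merged over the lists, the peaks formed 23 sites, of which 16 were in at least 3 lists and 5 in all 9. The site with the highest fold was chr2:71372631-71374814, numbered 13 from the left. The main summits of its strongest peak in the 9 lists fell within 35 bp of one another, from 71374190 to 71374225, and some lists hold further summits or weaker peaks in it. DLX1 peaks there had 8.39-, 21.0- and 26.6-fold enrichment over input at the 3 ages, DLX2 peaks 18.4-, 35.1- and 44.4-fold, and DLX5 peaks 11.1-, 15.0- and 22.8-fold. It led the window in 8 of the 9 lists, and it ranked 15 of 32610 peaks by fold in the DLX2 list of e16.5 and 205 of 4337 in the DLX1 list of e11.5.

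Next came site 4, chr2:71354355-71356983, which led the window in the remaining list, DLX2 at e11.5, with 19.6-fold enrichment. It was second among the 5 shared sites in 6 lists and lower in order in DLX5 at e13.5 (7.66-fold) and DLX5 at e16.5 (12.5-fold). The main summits of its strongest peak spread over 558 bp, from 71355242 in DLX5 at e11.5 to 71355800 in DLX1 at e11.5.

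The other 3 sites shared by all lists lie between and beside these. Site 7, chr2:71365469-71367315, had folds from 6.12 to 29.6; site 9, chr2:71368180-71369176, from 5.51 to 25.8; and site 14, chr2:71374983-71376809, from 5.51 to 32.0. Measured from the summit of site 13, the summits of sites 4, 7 and 9 lie 18.6, 7.76 and 5.47 kb to the left and that of site 14 lies 2.09 kb to the right. The orders of sites 7, 9 and 14 changed from list to list. In the DLX5 lists of e13.5 and e16.5 the second place went to site 9 (8.57-fold) and site 14 (15.4-fold), and single libraries allow no test of such differences.

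Of the 11 sites in at least 3 but not all lists, site 3 (chr2:71350231-71350972) and site 20 (chr2:71384224-71385496) were in 8 lists, with folds of 3.49 to 14.8 and 5.14 to 10.8. Sites 8 and 17 were in 7 lists, site 23 in 6, sites 2, 6 and 21 in 5, sites 10 and 18 in 4 and site 5 in 3. The highest fold among these 9 was 11.6, at site 18. All but 3 of the 23 sites lie within 36.7 kb of site 13, and the exceptions are site 1, 61.1 kb to the left, and sites 22 and 23, 45.0 and 46.3 kb to the right. Enhancers known from transgenic mice lie around these genes, but no annotation of mm9 was used here and no site was matched to them or to an exon.

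**Figure D3:**
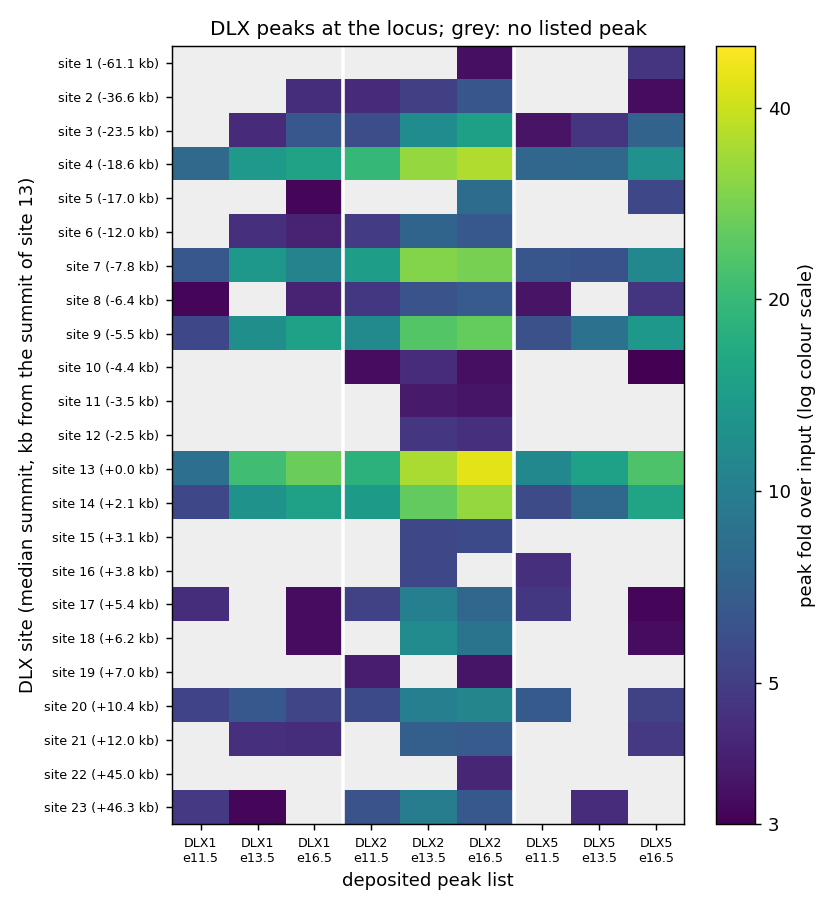
Highest fold over input (log colour scale) of the peaks at each of the 23 DLX sites in the 9 deposited lists, with each site's distance in kb from the summit of site 13; grey means no listed peak. Sites 4, 7, 9, 13 and 14 are coloured in every column, and site 13 reaches the highest value, 44.4, in DLX2 at e16.5.

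The histone marks left a gap in the knockout. Across chr2:71368656-71383906, 15251 bp, no knockout list of any of the 4 marks held a peak, while in wild type a single broad peak of each mark covered all of it. The wild-type peaks over it had folds over input of 14.6 for H3K4me3, 8.56 for H3K27me3, 7.45 for H3K27ac and 4.32 for H3K4me1, as given by the authors' caller for the whole peak. In the knockout the nearest peaks ended at 71368655 for H3K4me3, 71368606 for H3K27ac, 71368449 for H3K27me3 and 71368310 for H3K4me1. On the other side they began again at 71383907, 71383964, 71384039 and 71384890 in the same order. The left edges of the 4 marks lie within 345 bp and the right edges within 983 bp. The knockout input of this stretch is not analysed here, so fewer copies of the DNA and fewer marked nucleosomes cannot be told apart.

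No other gap of this kind was as long. Among all places of the genome that carried all 4 marks in wild type and none in the knockout there were 82 stretches, with a median length of 52.5 bp, and the second longest was 1115 bp. In the reverse direction, with all marks in the knockout and none in wild type, the longest of 492 stretches was 1166 bp. This comparison over the genome was chosen after the gap had been seen. A stretch without peaks is not unusual in itself, since 447 of 1211 windows of the same length on chromosome 2 (36.9%) held one as long in the knockout. It was rare where marks were dense. Knockout peaks of the 4 marks together covered 86.6% of this window, and 82 windows were covered at least as much. Of those, 1 held a stretch as long. The windows were tiled along the whole chromosome, this locus included.

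DLX binding sits on and around the gap. Of the 23 sites in wild type, 10 lie inside it, among them sites 13 and 14, which are shared by all 9 lists. Site 9 spans its left edge, 8 sites lie to its left, including sites 4 and 7, and 4 lie to its right. The sites in at least 3 lists divide into 7 on the left, 1 on the edge, 5 inside and 3 on the right. DLX binding was not mapped in the knockout.

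**Figure D4:**
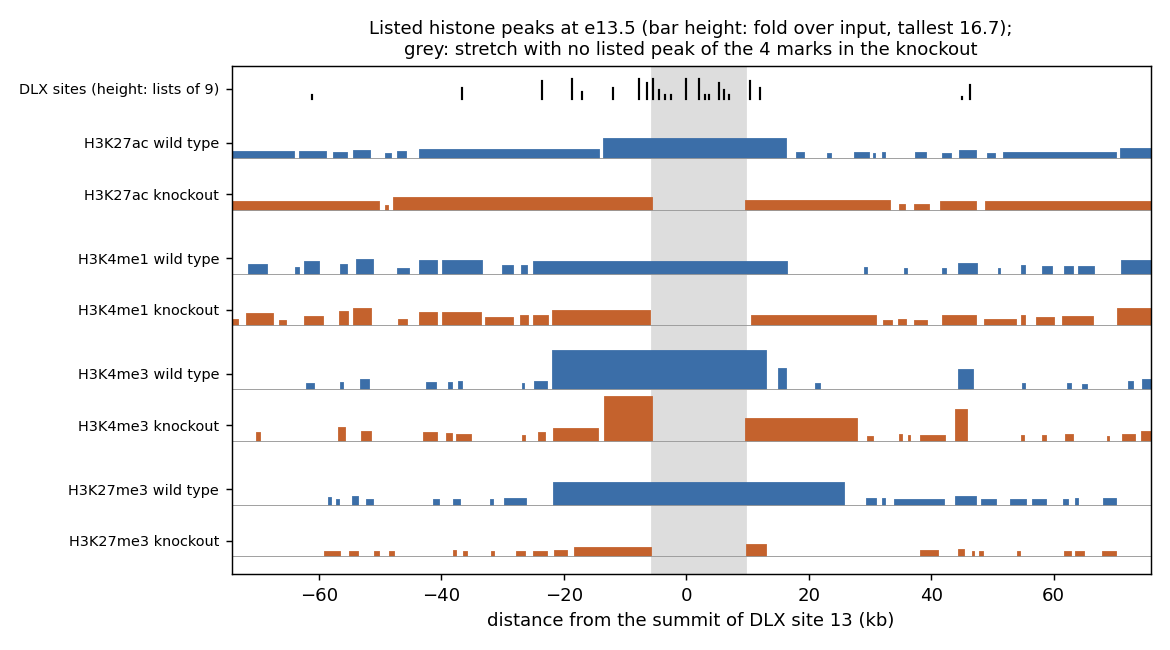
Listed peaks of 4 histone marks in wild type (blue) and knockout (orange) at e13.5 against distance from the summit of DLX site 13 in kb, with bar height as fold over input on 1 scale for all lists; ticks at the top are DLX sites, taller when found in more of the 9 lists. In the grey stretch of 15251 bp every wild-type row is filled and every knockout row is empty, and knockout peaks stand directly at both of its edges.

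Outside the gap the knockout kept marks. The H3K4me3 peak that ends at the left edge, chr2:71360969-71368655, had a fold of 16.7 and was the highest H3K4me3 peak of the window in either genotype. To the right of the gap, H3K4me3 in the knockout ran over 18132 bp (chr2:71383907-71402038, fold 8.45). Wild-type H3K4me3 ended earlier there, at 71387180, with a separate peak at chr2:71389291-71390445 (fold 7.71). H3K27me3 did the reverse: the wild-type peak spanned 47391 bp (chr2:71352559-71399949), the gap included, whereas the highest knockout peak was chr2:71384039-71387297 with a fold of 4.32. Left of the gap, within the same span, the knockout list held a weaker H3K27me3 peak of 12440 bp (chr2:71356010-71368449, fold 3.12, −log10 q 3.55). The highest H3K27ac peak of the knockout, chr2:71326515-71368606, also ended at the left edge (fold 4.29), while that of wild type was the one over the gap. For H3K4me1 the highest peaks lay away from the gap, at chr2:71320420-71323003 in wild type (fold 5.14) and at chr2:71444692-71452236 in knockout (fold 6.14). At a −log10 q of at least 5, a minimum set because the histone lists reach down to 0, the window held 1 H3K27ac peak in each genotype, 6 wild-type and 11 knockout H3K4me1 peaks, 3 and 5 H3K4me3 peaks and 1 H3K27me3 peak in each. With all listed peaks, the longest stretch of the window without any wild-type peak was 2118 bp. Over the whole window, with the gap included and all listed peaks counted, H3K27me3 covered 51.9% in wild type and 24.1% in knockout. H3K4me1 covered 52.5% and 64.0%. Part of the H3K27me3 difference is the gap itself, which was fully covered in wild type and empty in knockout.

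The authors' own comparison of the genotypes gives each region a log10 likelihood ratio, a score that grows with the evidence that a region differs. By that score the gap held the top region higher in wild type for 3 marks. The region of H3K4me3 higher in wild type, chr2:71368511-71384091, scored 262 and ranked 1 of 360. That of H3K27ac, chr2:71368480-71384309, scored 187 and ranked 1 of 700. H3K4me1 was divided into 5 regions between 71367004 and 71385242 that cover 85.3% of the gap, the best of which, chr2:71373965-71381374, scored 117 and ranked 1 of 2936. The H3K27me3 region, chr2:71364449-71384488, scored 180 and ranked 2 of 5116. It starts 4207 bp before the gap, and thus extends beyond it on that side.

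Right of the gap, the authors listed regions of the 3 other marks as higher and regions of H3K27me3 as lower in knockout, which overlapped only in part. H3K4me3 was higher in knockout in 3 regions there, chr2:71384627-71389710 (score 31.3), chr2:71390384-71392718 (21.2) and chr2:71398253-71399253 (17.4). H3K4me1 was higher in 9 regions, of which chr2:71397230-71397837 scored highest at 36.3. H3K27ac was higher in 5, with scores of 3.59 to 10.8. H3K27me3 was higher in wild type in 4 regions on this side, the strongest at chr2:71386154-71392629 with a score of 54.4. On this side, 2 of the 3 H3K4me3, 2 of the 9 H3K4me1 and 2 of the 5 H3K27ac regions shared bases with one of these. The H3K4me1 region of the highest score and the H3K4me3 region farthest to the right did not.

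Over the window as a whole the authors listed 1 H3K27ac, 5 H3K4me1, 3 H3K4me3 and 8 H3K27me3 regions as higher in wild type, which over the genome were 1.79%, 2.36%, 0.966% and 14.1% of the regions compared. As higher in knockout they listed 6, 13, 7 and 0, against 1.39%, 1.53%, 4.52% and 1.82%. As common to both genotypes they listed 17, 21, 9 and 1 regions of the window, in the same order of marks. The percentages over the genome count such common regions too. Regions of the window higher in knockout for an active mark shared bases with a region of lower H3K27me3 in 2 of 6 cases for H3K27ac, 4 of 13 for H3K4me1 and 4 of 7 for H3K4me3. Over the genome such sharing was found for 1.47%, 0.472% and 1.25% of these regions. Those genome counts, 8, 9 and 21 regions, include the ones of this window. Left of the gap, some of the sharing was with the H3K27me3 region that extends out of the gap. Each comparison rests on 1 library per genotype, and neighbouring regions are not independent.

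Among the DLX sites outside the gap, sites 7, 20 and 21 overlap regions of both directions. Site 20, 317 bp to the right, overlaps the H3K4me3 region higher in knockout and regions of H3K27ac, H3K4me1 and H3K27me3 higher in wild type that extend out of the gap. Site 7, 1340 bp to the left, overlaps small H3K4me3 regions higher in knockout (chr2:71366046-71366584, score 5.07, and chr2:71366859-71367277, score 4.70). It also overlaps regions of H3K27me3 and H3K4me1 higher in wild type that extend out of the gap. Sites 1 to 5, farther left, overlap no differential region of any mark, although site 4 was bound in all 9 lists.

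**Figure D5:**
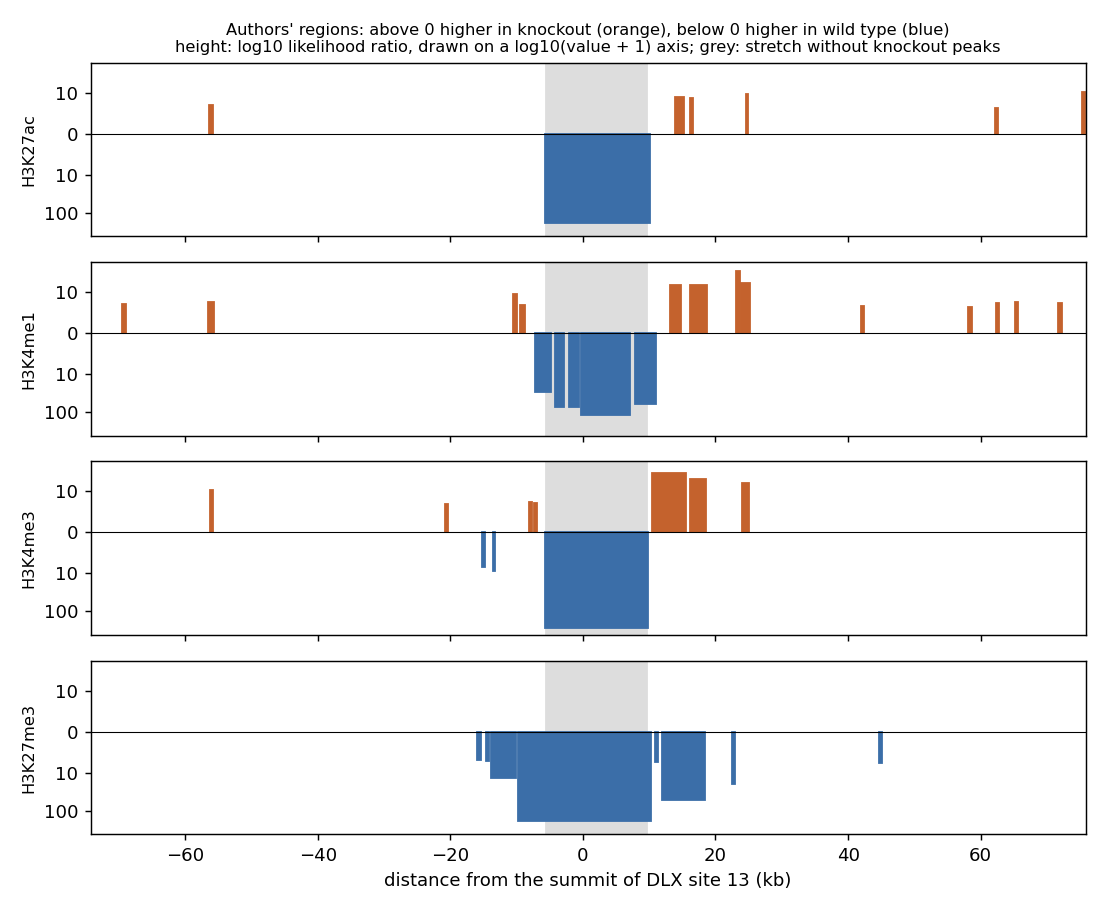
The authors' differential regions for each histone mark against distance from the summit of DLX site 13 in kb; bars above 0 are higher in knockout, bars below are higher in wild type, and height is the log10 likelihood ratio on a log10(value + 1) axis. The grey gap is filled with blue for H3K27ac, H3K4me3 and H3K27me3, and H3K4me1 has 5 separate blue regions that cover 85.3% of it. To the right of the gap lie orange bars of H3K4me3, H3K4me1 and H3K27ac and blue bars of H3K27me3, of which only some overlap.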

How the data were processed

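Per gene symbol, the authors deposited raw read counts with no scaling; bcl2fastq and STAR 2.4.2a were used with build mm9, per the submitters' processing notes, and no counting tool or annotation is named. The same table gives, per the file headers, the authors' log2 fold change, the score of a likelihood ratio test, and a p-value and FDR. The authors' deposited table gives log2 −8.71 for Dlx1as, −4.10 for Dlx2 and −2.41 for Dlx1. The deposited peak lists give fold enrichment over input and −log10 p and q, from MACS2 after Trim Galore and BWA 0.7.16a, per the submitters' processing notes. The authors' differential lists give a log10 likelihood ratio as a score, and condition 1 was read as wild type after 80.8% to 97.6% of its regions were found to carry the stronger peak there. Histone lists reach down to a −log10 q of 0, so counts of histone peaks were also made at 5.

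Counts were tested with edgeR 4.0.16 (quasi-likelihood, TMM, filterByExpr at a minimum count of 10, Benjamini-Hochberg at 0.05) in R 4.3.3, knockout against wild type over all 14510 genes that passed. The procedure was tested on simulated data. Nothing in the labels ties a replicate number of one genotype to the other. The deviations of same-numbered samples correlated (r of 0.155, 0.293, 0.374 and 0.482), so the numbers were treated as pairs in an alternative fit. Wild type 1 with knockout 2 (0.603) and wild type 2 with knockout 1 (0.394) correlated more than the same numbers did. Wild type 3 with knockout 4 (0.216) and wild type 4 with knockout 3 (0.226) correlated less. The pairing by number is thus an assumption. Only the 4 samples per genotype measure the spread. DLX peaks were merged into a site where they shared at least 1 bp, with coordinates written from 1. The 8 inputs are not analysed here. Named are the members, family and nearest neighbours, other list genes that were called, the 3 transcripts most like each member, DLX sites in at least 3 lists and the authors' regions of the window; some list genes are not reported here. Members, lists and tests were chosen with earlier results of these data known.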

Additional observations from a re-analysis of the deposited data

How the results depend on the processing

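Dlx1, Dlx2 and Dlx1as stayed lower and past the threshold under RLE scaling, DESeq2 1.42.0, no filter, the replicate block, replicates 1 and 2 or 3 and 4 alone and each library left out. Over all genes, DESeq2 called 241 lower and 230 higher, the replicate block 313 and 322 (including all 215 called without it), and replicates 1 and 2 alone 202 and 178, against 130 and 85. Leaving out 1 library gave 50 to 66 higher genes: of the wild-type libraries, omitting the first replicate left 50, the second 55 and the third 54, and of the knockout libraries omitting the first left 50 and the fourth 56. Of the genes acting on or with DLX1 and DLX2, 2 were lower and 5 higher by DESeq2, 3 and 6 with the block, and 2 were lower with replicates 1 and 2 alone. Of the neighbours, 2 were higher by DESeq2, and 1 or 2 were lower with a library left out (1 when any of wild-type replicates 1, 2 and 3 or knockout replicates 1 and 2 was). Of the genes described as downstream of Dlx1 and Dlx2, Lhx6 missed the threshold without wild-type replicate 3 (edgeR adjusted p = 0.0514) or knockout replicate 1 (0.0543). Vax1 missed it with replicates 3 and 4 alone (edgeR adjusted p = 0.0874). Values near 0 changed sign: Pdk1 to −0.0080 with replicates 1 and 2 alone, and Itga6 to −0.0056 with replicates 3 and 4 alone, −0.0030 and −0.030 when wild-type replicate 1 or 2 was left out, and −0.027 when knockout replicate 4 was, with 0.109 as its highest. With the replicate block the ratios kept their differences of 1.62, −6.89 and −5.27, at an exact sign-flip p of 0.125, the smallest 4 pairs can give. The causes were not tested.

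With a −log10 q of at least 10, 8 DLX sites were in at least 3 lists and 2 in all 9. At a −log10 q minimum of 2, histone peaks numbered 5 in wild type and 5 in knockout for H3K27ac, 13 in wild type for H3K4me1, 5 and 10 for H3K4me3 and 3 and 2 for H3K27me3. At 10 they numbered 0 in knockout for H3K27ac, 1 and 4 for H3K4me1, 3 in knockout for H3K4me3 and 0 in knockout for H3K27me3. When knockout peaks needed a −log10 q of 5 or more, the gap kept its length of 15251 bp, but a stretch of 23203 bp elsewhere in the window became the longest. At a likelihood ratio of at least 10 on the log10 scale, 1 H3K27ac, 4 H3K4me1 and 4 H3K4me3 regions were left as higher in knockout, and 1 H3K4me3 and 4 H3K27me3 regions as higher in wild type. The ChIP depth is unknown, and single libraries give no error for any peak.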
